A study of Arabidopsis thaliana with 9 samples.

Results

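The respiratory burst oxidase homologs (RBOH) are the NADPH oxidases of the plant plasma membrane. RBOHA to RBOHG and RBOHI were taken by gene identifier from a table of normalized expression in *Arabidopsis* leaves. Of these 8 genes, 2 had a row among the 17605 genes of the table, RBOHD (AT5G47910) and RBOHF (AT1G64060). RBOHA (AT5G07390), RBOHB (AT1G09090), RBOHC (AT5G51060), RBOHE (AT1G19230), RBOHG (AT4G25090) and RBOHI (AT4G11230) had no row and were not analysed here. The annotation lists 10 RBOH genes in all, and RBOHH and RBOHJ, which are known from pollen tubes, had no row either. The sources used here do not give the filter behind the 17605 genes, so a missing row was not read as a lack of transcript.

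RBOH enzymes move electrons from cytosolic NADPH to oxygen outside the cell, and the superoxide they form is converted to hydrogen peroxide. Calcium binding and phosphorylation of the cytosolic N-terminus switch the enzyme on. In leaves, RBOHD is known as the main source of the reactive oxygen species (ROS) burst that follows recognition of microbial molecules at the cell surface, while RBOHF acts with it in stomatal closure and in the control of cell death. Other members are known from other organs, such as RBOHC from root hairs.

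The study compared leaves of five-week-old wild-type Col-0 plants, with 3 libraries in each of 3 groups. For egg extract (EE), the content of crushed eggs of the butterfly *Pieris brassicae*, 2 drops of 2 µL were placed on the underside of 2 leaves of each of 4 plants for 5 days. For oviposition, butterflies laid eggs on the plants during 24 h, and 4 plants bearing 1 egg batch on each of 2 leaves then stayed in a growth chamber for 4 days, until the eggs were taken off shortly before hatching. Control plants were left untreated, so they received neither a drop of solvent nor the handling of egg removal, and both treatments were compared with the same 3 control libraries. The libraries came from 3 biologically independent experiments, and the labels do not say which libraries of different groups belong to 1 experiment.

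The deposited value of a gene is its log2 normalized CPM, the reads of the gene scaled to a common library size, and the underlying reads could be recovered. With a tolerance of 0.01 reads, each of 158445 values gave a whole number of reads, with recovered totals of 37348236 to 47057692 reads per library. A normalized CPM of 1 corresponded to between 29.4 and 51.4 reads. All libraries had the same median of 4.19. The library size that the normalization used, divided by the recovered total, ranged between 0.700 in control replicate 3 and 1.20 in EE replicate 2. The labelled tissue was described with marker lists. All 4 mesophyll genes had a row. They summed to 11122 to 36815 CPM in EE libraries, 13577 to 76977 CPM in oviposition libraries and 13791 to 118320 CPM in control libraries. A row was present for 0 of 4 root genes and 0 of 3 pollen genes, which include RBOHH and RBOHJ. Because the filter is not given, these missing rows do not check the tissue. Replicates of a group differed by more than counting noise, with a chi-square per degree of freedom of at least 94.9 between any pair of libraries of 1 group.

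RBOHD lies on the forward strand of chromosome 5 at 19397443 to 19402061 in the deposited table, and the RefSeq annotation of TAIR10.1 starts the gene 402 bases earlier, at 19397041. RBOHF lies on the forward strand of chromosome 1 at 23769774 to 23776931, and RefSeq gives the same start. RBOHD has 8 coding exons and a coding length of 2766 bases, and RBOHF has 14 coding exons and 2835 bases. Their coding sequences were identical at 56.5% of aligned bases, and the longest stretch shared by both, at any position, was 20 bases. Within the family, RBOHD was closest to RBOHB and RBOHC, each with 63.0% identity, and RBOHF to RBOHI with 66.0%. No other annotated protein-coding gene overlapped either of them. The 250 bases before the RefSeq start of both genes are shown because they are the sequence next to the start of the gene that changed and of the gene that did not pass the test. They were read from the RefSeq genome, build TAIR10.1, forward strand, and cover chr5:19396791-19397040 for RBOHD and chr1:23769524-23769773 for RBOHF. Capitals mark a W-box, the site of WRKY transcription factors, searched as TTGACC or TTGACT on both strands.
RBOHD: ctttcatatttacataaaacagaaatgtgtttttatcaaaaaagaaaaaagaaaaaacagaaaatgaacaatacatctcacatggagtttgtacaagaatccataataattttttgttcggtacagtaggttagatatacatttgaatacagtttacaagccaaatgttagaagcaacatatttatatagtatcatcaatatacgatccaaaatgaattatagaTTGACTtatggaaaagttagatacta
RBOHF: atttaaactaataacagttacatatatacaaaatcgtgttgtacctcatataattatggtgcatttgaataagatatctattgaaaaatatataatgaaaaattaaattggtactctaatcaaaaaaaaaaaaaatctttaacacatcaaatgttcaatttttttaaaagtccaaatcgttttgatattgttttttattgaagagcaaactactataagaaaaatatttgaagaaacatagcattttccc

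The stretch before RBOHD held 1 W-box, which begins 26 bases before the start, and the stretch before RBOHF held none. In the window from 250 bases before to 50 bases after the start, neither gene held TGACG on either strand, the core motif bound by TGA factors. A W-box was present in this window in 32.4% of 27443 annotated promoters and TGACG in 23.1%, so the 1 match of RBOHD is a common one. Among the members without a row, RBOHA, RBOHB and RBOHG had 1 W-box each in the window, while RBOHC, RBOHE and RBOHI had none. The GC content of the 250 bases was 25.6% for RBOHD and 21.6% for RBOHF.

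RBOHD transcript was higher after EE treatment than in untreated leaves. Its log2 value was 7.46, 7.35 and 7.56 in EE libraries, against 5.45, 6.57 and 5.26 in control libraries, for replicates 1, 2 and 3. All 3 EE libraries lay above all 3 control libraries, and the nearest pair of libraries was 0.78 apart on the log2 scale. The share of genes whose libraries did not overlap in this direction was 9.12% over the whole table. The mean was 176 ± 12.6 CPM in EE leaves and 59.0 ± 31.4 CPM in control leaves (SD, n = 3 each). These levels rest on 8647, 8760 and 7545 reads in EE libraries and on 1965, 4684 and 1086 reads in control libraries, so counting error was small. The exact 95% interval for the lowest count, 1086 reads, was 1022.4 to 1152.6, and such intervals cover counting error only.

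The log2 fold change of RBOHD after EE was 1.70 (SE 0.34, 95% interval 0.93 to 2.46), which is 3.24-fold. It passed the threshold of 0.05 with limma (adjusted p = 0.0315), and EE raised 2.73% of all genes by the same criterion. RBOHD was thus the 1 member of the 2 with a row that was raised by EE. Of the 481 genes raised by EE, 441 had a larger log2 fold change than RBOHD. An exact two-sided permutation test of the 3 EE against the 3 control libraries gave p = 0.1, the smallest value that 3 against 3 can give. Within each replicate number the EE library was above the control library, by 2.01, 0.78 and 2.30 on the log2 scale for numbers 1, 2 and 3.

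The call on RBOHD depended on the settings. Its direction could not be changed by leaving out 1 library, because all EE libraries lay above all control libraries. Over 22 alternative settings the log2 fold change of EE over control remained between 1.45 and 2.16, and the adjusted p varied between 0.0028 and 0.139. The adjusted p was above 0.05 in 10 of them. It was 0.0601 with voom on the recovered reads, 0.0608 with precision weights from vooma, 0.0848 with only EE and control libraries in the model and 0.0855 with RPM, the reads scaled by the recovered total alone, where the log2 fold change was 1.92. Leaving out EE replicate 1, 2 or 3 gave 0.125, 0.0948 and 0.139, leaving out control replicate 1 or 3 gave 0.116 and 0.0866, and leaving out oviposition replicate 3 gave 0.0606. Without control replicate 2, the control library with the most RBOHD, the log2 fold change was 2.10 with an adjusted p of 0.0028.

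**Figure D1:**
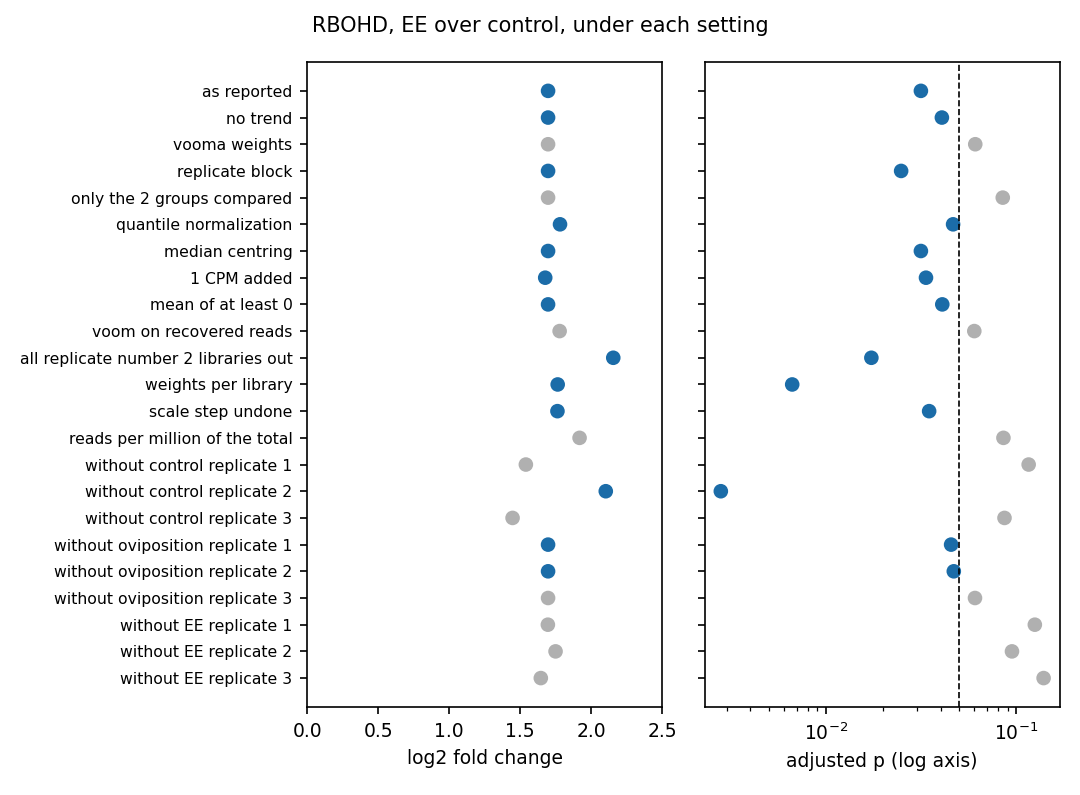
RBOHD in EE over control under each setting, with the log2 fold change on the left and the limma adjusted p on a log axis on the right. Blue points have an adjusted p under 0.05, grey points do not, and the dashed line marks 0.05. All fold changes lie between 1.45 and 2.16, while the adjusted p falls on both sides of the line.

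After oviposition RBOHD was not distinguishable from control. Its log2 value was 5.90, 6.44 and 6.17 in oviposition libraries, against 5.45, 6.57 and 5.26 in control libraries. The groups overlapped, because control replicate 2 was above every oviposition library while the other 2 controls were below all of them. The mean was 72.9 ± 13.5 CPM in oviposited leaves and 59.0 ± 31.4 CPM in control leaves (SD, n = 3 each). The log2 fold change was 0.41 (SE 0.34, limma adjusted p = 0.998), with a 95% interval of -0.35 to 1.18, so that a change between 0.783-fold and 2.26-fold lay within the interval. Within replicate numbers 1, 2 and 3 the oviposition library differed from the control library by 0.46, -0.13 and 0.91. The log2 fold change was 0.82 without control replicate 2, 0.26 without control replicate 1 and 0.16 without control replicate 3, and the gene did not pass the threshold under any of the 22 alternatives.

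Of the 2 members with a row, 0 were changed by oviposition with limma at an adjusted p under 0.05, 0 at an unadjusted p under 0.05 and 0 with voom on the recovered reads. Over all genes, oviposition changed 1.5% at the adjusted threshold and 7.69% at the unadjusted one.

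Between the treatments, RBOHD was higher in EE leaves in every pair of libraries. The log2 values of 7.46, 7.35 and 7.56 in EE libraries stood against 5.90, 6.44 and 6.17 in oviposition libraries, with a gap of 0.91 between the nearest libraries. In this comparison 4.28% of all genes did not overlap in the same direction. The log2 fold change was 1.28 (SE 0.34, 95% interval 0.52 to 2.05), or 2.44-fold, and 1.39% of all genes had a larger one. It had an unadjusted p of 0.00426 in limma and did not pass the threshold after adjustment over all genes (adjusted p = 0.789, and 0.086 to 1 over the 22 alternatives). The exact permutation p was 0.1, again the smallest possible. By limma, 0 of the 2 members passed the adjusted threshold and 1 had an unadjusted p under 0.05, and voom on the recovered reads called 0. Over all genes only 0.017% passed the adjusted threshold and 2.85% the unadjusted one.

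The 3 groups of RBOHD also differed in how close their replicates were. The SD of the log2 values was 0.10 in EE, 0.27 in oviposition and 0.71 in control leaves. The median SD over 16952 genes with a mean log2 value of at least 0 followed the same order, with 0.24 in EE, 0.41 in oviposition and 0.51 in control leaves. In EE libraries 84.7% of these genes had a larger SD than RBOHD, and in control libraries 31.8% did. RBOHD exceeded 95.6%, 95.9% and 95.6% of all genes in EE libraries. It exceeded 80.6%, 89.4% and 84.2% in oviposition libraries and 74.5%, 90.5% and 70.1% in control libraries.

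RBOHF transcript was measured at nearly the same mean level in the 3 groups. Its log2 value was 4.37, 4.39 and 4.46 in EE libraries and 3.77, 4.45 and 4.24 in oviposition libraries, against 4.61, 4.57 and 3.56 in control libraries. The control libraries contained both the 2 highest values and the lowest one, so both treatments overlapped with control. Means were 21.2 ± 0.681 CPM in EE, 18.1 ± 4.15 CPM in oviposition and 20.04 ± 7.14 CPM in control leaves (SD, n = 3 each). Control replicate 3, with 340 reads, had the lowest RBOHF value, and the same library had the lowest ratio of fitted library size to recovered total. On the recovered total, without that normalization, control replicate 3 was again the lowest, with 7.96 RPM of RBOHF against 26.3 and 27.5 RPM in control replicates 1 and 2.

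**Figure D2:**
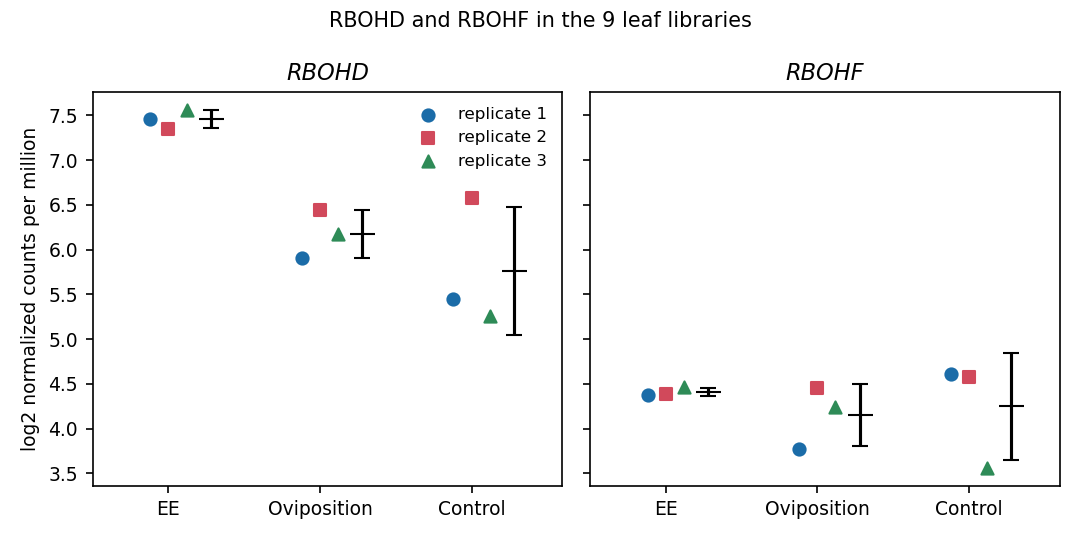
Log2 normalized CPM of RBOHD (left) and RBOHF (right) in EE, oviposition and control libraries. Each point is 1 library, with colour and shape giving the replicate number, and bars show the mean ± SD of 3 libraries. The EE libraries of RBOHD, between 7.35 and 7.56, lie above all others, while the groups of RBOHF overlap.

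The log2 fold change of RBOHF was 0.16 after EE (SE 0.31, 95% interval -0.56 to 0.87, limma adjusted p = 0.883). The interval corresponds to between 0.680-fold and 1.83-fold, so a moderate change in either direction could not be seen in these libraries. After oviposition it was -0.10 (95% interval -0.81 to 0.61, limma adjusted p = 0.998), from 0.571-fold to 1.53-fold. Between EE and oviposition it was 0.25 (95% interval -0.46 to 0.96, limma adjusted p = 0.999). The sign was set by single libraries, since the EE value became -0.19 without control replicate 3, and the oviposition value became 0.09 without control replicate 1, 0.07 without control replicate 2 and 0.09 without oviposition replicate 1. Markers of guard cells, a cell type in which RBOHF is known to act, summed to 50.4 to 62.5 CPM in EE and 48.8 to 66.0 CPM in oviposition libraries, against 66.9 to 79.4 CPM in control libraries. Of these 5 markers, 0 passed the adjusted threshold with limma in either comparison with control, and their part in the RBOHF values was not tested. In whole leaves, fewer cells of a type and less RNA per cell cannot be told apart.

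The level of both genes was also compared within each library, where a factor that scales the whole library cancels. RBOHD minus RBOHF on the log2 scale was 3.09, 2.96 and 3.10 in EE and 2.13, 1.99 and 1.93 in oviposition libraries, against 0.83, 2.00 and 1.70 in control libraries. The EE libraries lay above all others. The mean of this difference was 3.05 ± 0.08 in EE, 2.02 ± 0.10 in oviposition and 1.51 ± 0.61 in control leaves (SD, n = 3 each). EE exceeded control by 1.54, with the nearest libraries 0.97 apart, and exceeded oviposition by 1.03, with the nearest libraries 0.83 apart. Each comparison had an exact two-sided permutation p of 0.1, the smallest possible with 3 against 3. Oviposition exceeded control by 0.51 with overlapping libraries (exact permutation p = 0.3). Leaving out 1 library at a time kept the EE difference from control between 1.20 and 1.78, whereas the oviposition difference from control varied between 0.17 without control replicate 1 and 0.75 without control replicate 2. Computed from the recovered reads, the differences were 1.57, 1.06 and 0.51 in the same order. RBOHF itself differed by only 0.16 between EE and control and by 0.25 between EE and oviposition. The separation of the EE libraries thus largely repeats that of RBOHD and is not a second result. How many other gene pairs separate in this way was not computed.

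**Figure D3:**
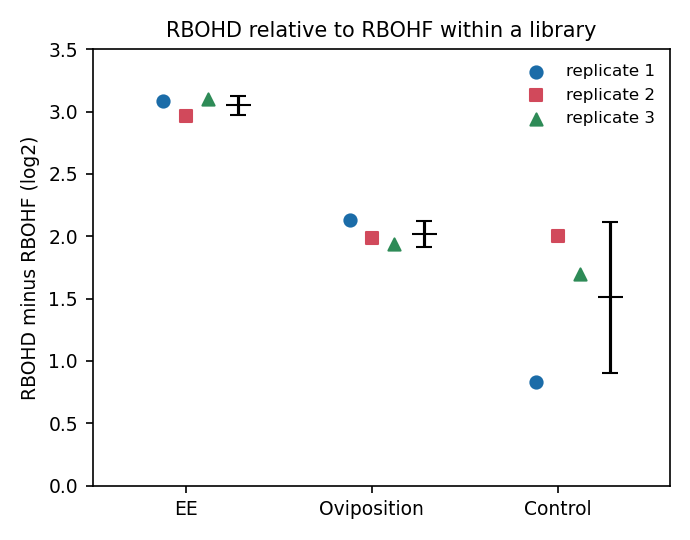
RBOHD minus RBOHF, in log2 units, within each EE, oviposition and control library. Points are libraries by replicate number, and bars show the mean ± SD of 3 libraries. The EE libraries, between 2.96 and 3.10, lie above all oviposition and control libraries.

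Levels of the 2 genes were set against each other per kilobase of coding length. RBOHD was the more abundant one in 9 of 9 libraries. It averaged 63.6 ± 4.57 CPM per kilobase in EE, 26.4 ± 4.88 in oviposition and 21.3 ± 11.4 in control leaves, while RBOHF averaged 7.48 ± 0.240 in EE, 6.39 ± 1.46 in oviposition and 7.07 ± 2.52 in control leaves (SD, n = 3 each). The ratio of RBOHD to RBOHF per kilobase was 8.7, 8.0 and 8.8 in EE libraries and 4.49, 4.07 and 3.92 in oviposition libraries, against 1.83, 4.10 and 3.33 in control libraries.

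Genes whose log2 values over the 9 libraries were most like those of RBOHD were sought by Pearson correlation among 16951 genes. Because the libraries include 3 treatment groups, such likeness is a description and contains the treatment difference itself. The 5 closest were AT1G64710 (r = 0.975), PGP21 (AT3G62150, r = 0.973), AT5G47580 (r = 0.967), AKT1 (AT2G26650, r = 0.956), a potassium channel, and OMTF3 (AT3G61990, r = 0.954). EE raised 4 of them, AT1G64710 by 1.53, PGP21 by 2.61, AKT1 by 2.46 and OMTF3 by 2.71 on the log2 scale, and AT5G47580, with 0.79, did not pass the threshold (limma adjusted p = 0.183). None of the 5 passed it after oviposition with limma. The 5 genes closest to RBOHF were AT2G29910 (r = 0.976), AT2G43810 (r = 0.971), AT5G17930 (r = 0.970), AT3G12640 (r = 0.966) and CAX2 (AT3G13320, r = 0.965), a vacuolar exchanger of calcium and other cations. Their correlation with RBOHF within groups was 0.968 to 0.978, so they followed the spread between replicates of 1 group. Their log2 fold changes after EE were between 0.11 and 0.34, and none passed the threshold.

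Genes that act with RBOH enzymes were grouped by role, in lists written from general knowledge. The first holds 17 activators, which phosphorylate, bind or otherwise switch on RBOHD or RBOHF, and all had a row. EE raised 1 of the 17, BIK1, against 2.73% of all genes. BIK1 is the cytoplasmic kinase that phosphorylates RBOHD downstream of pattern recognition receptors. BIK1 had log2 values of 4.76, 4.35 and 4.83 in EE and 4.34, 4.22 and 4.54 in oviposition libraries, against 3.45, 3.25 and 3.44 in control libraries. Both treatments were above every control library, which held for 9.12% of all genes after EE and 5.96% after oviposition. The log2 fold change was 1.27 after EE (SE 0.21, limma adjusted p = 0.0126) and 0.99 after oviposition (SE 0.21, limma adjusted p = 0.0614), which did not pass. The EE call on BIK1 was lost without EE replicate 1 (0.0868), without EE replicate 3 (0.0876) and with all replicate 2 libraries left out (0.0673). The calcium-dependent kinase CPK5, another activator of RBOHD, had a log2 fold change of -0.36 after EE and -0.42 after oviposition, neither past the threshold (limma adjusted p = 0.564 and 0.795). Every treated library of CPK5 lay below every control library, by at least 0.18 after EE and 0.09 after oviposition. The share of all genes separated in that direction is not given here. The median log2 fold change of the activators was 0.09 after EE and -0.05 after oviposition, against -0.04 and -0.02 over all genes.

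The 6 restraints, genes taken to restrain an RBOH enzyme or BIK1, all had a row and none changed by limma in either comparison. At an unadjusted p under 0.05 there were 0 after EE and 1 after oviposition, PBL13, and voom called 0 in each. PBL13 was higher after oviposition by 2.16 on the log2 scale (limma adjusted p = 0.308). Its mean log2 value was only -0.26 in oviposition and -2.42 in control libraries. At that level the size of the change depends on the value added before the logarithm. Over all 17605 genes, 2355 had an unadjusted limma p under 0.05 after EE and 1353 after oviposition. CPK28, the kinase that promotes BIK1 turnover, had a log2 fold change of 0.38 after EE and 0.00 after oviposition (limma adjusted p = 0.635 and 1). The median of the restraints was 0.17 after EE and -0.01 after oviposition.

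Surface receptors and co-receptors that act upstream of RBOHD made up a list of 12, all with a row. EE raised 2 of them, RLP23 and LECRK-I.8, against 2.73% of all genes. RLP23 is the receptor of a peptide from NLP proteins of microbes. LECRK-I.8 is the lectin receptor kinase known from the response to *P. brassicae* egg extract. RLP23 had log2 values of 5.66, 5.20 and 6.20 in EE and 6.23, 4.62 and 5.96 in oviposition libraries, against 3.54, 2.96 and 4.12 in control libraries. LECRK-I.8 was measured with 137, 104 and 110 reads in EE and 84, 104 and 111 reads in oviposition libraries, against 39, 12 and 19 reads in control libraries. Both genes were higher in every treated library than in any control, a separation that 9.12% of all genes had after EE and 5.96% after oviposition. After EE, their log2 fold changes were 2.15 for RLP23 (limma adjusted p = 0.0494) and 2.26 for LECRK-I.8 (limma adjusted p = 0.0434). After oviposition they were 2.06 for RLP23 (limma adjusted p = 0.0880) and 2.17 for LECRK-I.8 (limma adjusted p = 0.0806), neither past the threshold. EE differed from oviposition by 0.09 for RLP23 and 0.10 for LECRK-I.8 on the log2 scale (limma adjusted p = 0.999 each). Both EE calls depended on single libraries and on the settings. Leaving out 1 library gave adjusted p values between 0.0221 and 0.218 for RLP23, above 0.05 without 8 of the 9 libraries, and between 0.0393 and 0.197 for LECRK-I.8, above 0.05 without 7 of the 9. RLP23 kept its call without oviposition replicate 2, and LECRK-I.8 without control replicate 1 or 2. With all libraries, the call on RLP23 was lost with no mean-variance trend (0.0619), vooma weights (0.0686), 1 CPM added (0.0555), a mean of at least 0 (0.0607) and voom on the recovered reads (0.0517). That on LECRK-I.8 was lost with vooma weights (0.0652), only the 2 groups compared (0.141), quantile normalization (0.0585), a mean of at least 0 (0.0593) and voom (0.061), and also without all replicate 2 libraries (0.0948). With 1 CPM added, the log2 fold change of LECRK-I.8 after EE was 1.17. The median of the 12 receptors was 0.19 after EE and 0.02 after oviposition. Oviposition raised 0 of the 12 with limma and 2 at an unadjusted p under 0.05, RLP23 and LECRK-I.8. At that unadjusted threshold oviposition changed 7.69% of all genes. Voom called 0 of the 12 after oviposition and 0 of the 12 after EE.

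Genes that respond to hydrogen peroxide formed a list of 16, of which 15 had a row. EE raised 3 of them, against 2.73% of all genes. Oviposition raised 1 of them and changed 1.5% of all genes, and neither treatment lowered any gene of the list. At an unadjusted limma p under 0.05 there were 6 after EE and 6 after oviposition. Over all 17605 genes that threshold was passed by 2355 after EE and 1353 after oviposition. The median log2 fold change was 1.46 after EE and 1.50 after oviposition, against -0.04 and -0.02 over all genes. FOX1 (AT1G26380), a berberine bridge enzyme-like oxidase, was raised by both, with log2 fold changes of 5.87 after EE (limma adjusted p = 0.000812) and 4.62 after oviposition (limma adjusted p = 0.00468). It was measured with 2153, 1145 and 1041 reads in EE and 635, 540 and 391 reads in oviposition libraries, against 23, 47 and 7 reads in control libraries.

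OXI1, a kinase induced by hydrogen peroxide, had 297, 230 and 143 reads in EE and 27, 131 and 32 reads in oviposition libraries, against 1, 8 and 0 reads in control libraries. It passed the threshold after EE (limma adjusted p = 0.00678) and not after oviposition (log2 fold change 4.68, limma adjusted p = 0.0531). All oviposition libraries of OXI1 lay above all control libraries, as for 5.96% of all genes. EE and oviposition did not differ for OXI1 at the threshold (log2 fold change 1.99, limma adjusted p = 0.999). With so few control reads the size of its change depends on the value added before the logarithm, and the log2 fold change after EE was 6.68 as deposited and 2.40 with 1 CPM added. GSTU24, a glutathione transferase, had 347, 439 and 329 reads in EE and 85, 338 and 82 reads in oviposition libraries, against 28, 72 and 44 reads in control libraries. Its log2 fold change was 2.83 after EE (limma adjusted p = 0.0340) and 1.50 after oviposition (limma adjusted p = 0.474). The EE call on GSTU24 was lost without control replicate 1 (0.108) or 3 (0.0605) and without EE replicate 1 (0.124), 2 (0.119) or 3 (0.143), and with voom on the recovered reads (0.0586), vooma weights (0.0659) and quantile normalization (0.0554). HPCA1, the receptor kinase that senses hydrogen peroxide outside the cell, had a log2 fold change of -0.23 after EE and -0.45 after oviposition, neither past the threshold (limma adjusted p = 0.853 and 0.998).

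Handling of ROS outside the cell was represented by 5 genes, of which 4 had a row. EE raised 2, the cell wall peroxidases PRX33 and PRX34, against 2.73% of all genes. Oviposition raised 1, PRX33, and changed 1.5% of all genes. PRX34 had log2 values of 10.63, 10.49 and 10.89 in EE and 9.39, 10.24 and 10.40 in oviposition libraries, against 7.56, 8.35 and 8.72 in control libraries. No treated library of PRX34 overlapped with control, as for 9.12% of all genes after EE and 5.96% after oviposition in the same direction. Its log2 fold change was 2.46 after EE (limma adjusted p = 0.0158) and 1.80 after oviposition (limma adjusted p = 0.0951). The EE call on PRX34 was lost without EE replicate 1 (0.0789), 2 (0.0529) or 3 (0.0881), and without all replicate 2 libraries (0.0868). PRX33 had far fewer reads, 295, 250 and 542 in EE and 39, 46 and 21 in oviposition libraries, against 3, 1 and 1 in control libraries. It passed the threshold after EE (limma adjusted p = 0.000681) and after oviposition (limma adjusted p = 0.0159). The oviposition call was lost without oviposition replicate 1 (0.058) or 2 (0.0771), with voom on the recovered reads (0.306), vooma weights (0.314), only the 2 groups compared (0.181), quantile normalization (0.367) and 1 CPM added (0.611), and without all replicate 2 libraries (0.13). With 1 CPM added, the log2 fold change of PRX33 was 3.01 after EE and 0.81 after oviposition, against 7.24 and 4.05 as deposited. PRX33 and PRX34 are close copies of each other, and how reads shared by both were divided is not given in the sources used here, so the PRX33 values are uncertain. The median of the 4 genes was 1.34 after EE and 1.29 after oviposition.

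The enzymes that supply NADPH in the cytosol, the substrate of the oxidases, formed a list of 9, of which 7 had a row. By limma, 0 changed after EE and 0 after oviposition. At an unadjusted p under 0.05 there was 1 after EE, NADP-ME2, and 0 after oviposition, and voom called 0 in each. That unadjusted threshold was passed by 2355 of all 17605 genes after EE and by 1353 after oviposition. Their median log2 fold change was 0.33 after EE and 0.21 after oviposition. In all, EE raised 8 of the 61 genes with a row in these lists and oviposition raised 2, and 0 were lowered by either treatment. Over all genes EE raised 2.73% and oviposition changed 1.5%, and nothing particular to the lists was read from these counts. Leaving out EE replicate 1, 2 or 3 left 3, 4 and 3 of these genes for EE, and leaving out oviposition replicate 1 left 1 for oviposition. EE against oviposition gave 0 calls in every list with limma and with voom. In that comparison 4 of these genes, PRX33, FOX1, GSTU24 and NADP-ME2, had an unadjusted p under 0.05, against 2.85% of all genes.

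**Figure D4:**
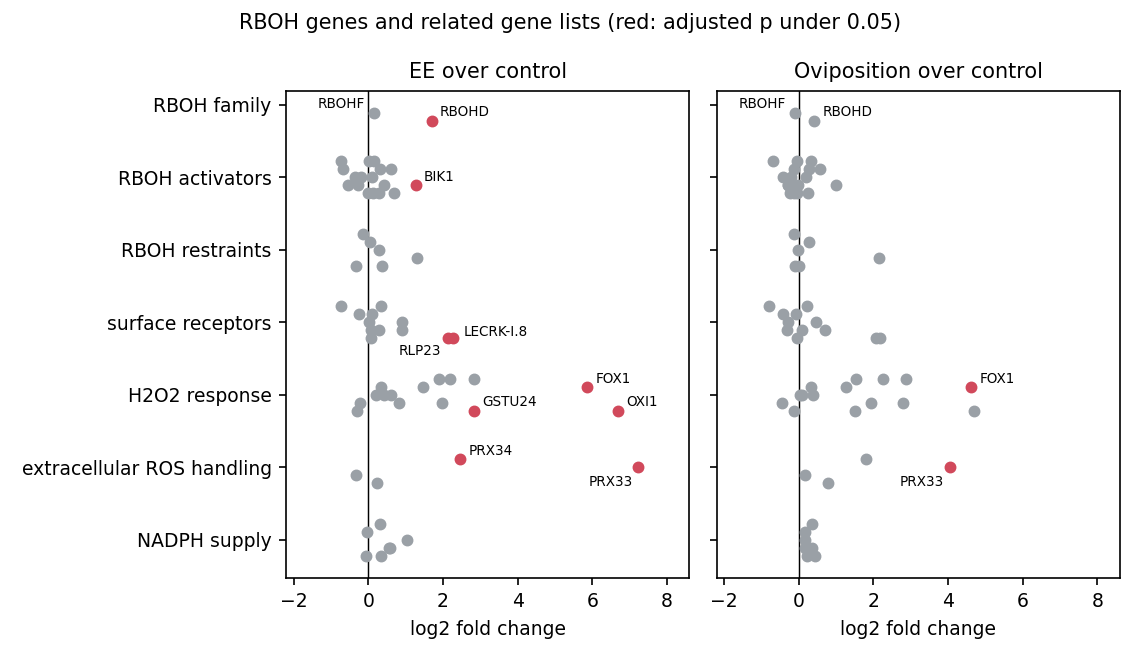
Log2 fold changes of RBOHD, RBOHF and the genes of each list, after EE over control (left) and after oviposition over control (right). Each point is 1 gene and red marks an adjusted p under 0.05 in limma. RBOHD at 1.70 is red after EE and grey at 0.41 after oviposition, and the lists on hydrogen peroxide and extracellular ROS extend farther to the right than the others.

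The senescence list had 1 gene with a row, SAG13. The authors had chosen SAG13 from these data as a marker of the egg response, so its rise was known beforehand. SAG13 summed to 185 to 208 CPM in EE and 40.6 to 148 CPM in oviposition libraries, against 0.279 to 4.33 CPM in control libraries, and it was raised by both treatments. The other gene of that list, SAG12, had no row. Markers of the vasculature summed to 239 to 329 CPM in EE, 239 to 260 CPM in oviposition and 201 to 297 CPM in control libraries. The part of senescence in the RBOHD values was not tested.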

How the data were processed

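Leaves of *Arabidopsis* were sequenced as stranded mRNA in 9 libraries, 3 per group, and samples were grouped by their titles. The authors mapped reads to TAIR10 with STAR, scaled the counts by TMM and by library size, and deposited them as log2 CPM. The submitters' processing notes also list cutadapt 1.5, HTSeq, edgeR 3.4.0 and limma 3.2. The equal medians show a further scaling between libraries, which the sources used here do not describe. A second deposited table holds the authors' log2 fold changes and adjusted p-values and was not used.

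Whole reads were recovered by fitting a library size and a factor per library, given 0.5 added reads, with a tolerance of 0.01 reads. The model was fitted to the deposited log2 values in R 4.3.3 with limma 3.58.1, and had 1 mean per group over all 9 libraries and variances that follow the mean-variance trend. Benjamini-Hochberg adjustment ran over all 17605 genes of each comparison, and the threshold was 0.05. A fold change is thus a difference of means on the deposited log2 scale, and for genes with few reads its size depends on the value added before the logarithm. Exact two-sided permutation tests served for single values. The model was tested on simulated data. Python 3.11.15 with pandas 2.3.3 and matplotlib 3.10.9 handled sequences and figures.

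The members and lists were chosen with earlier results of these data known. From each list, genes past the threshold in a comparison with control were named, at most 4 per list and comparison, and BIK1, CPK5, CPK28, LECRK-I.8 and HPCA1 in any case, plus the 5 genes most like each measured member. NADP-ME2 and PBL13 are named outside this rule, after their values were seen. Coding lengths, sequences and motifs come from the RefSeq annotation and genome of TAIR10.1. Of 17197 genes compared, 99.8% had starts less than 2000 bases apart in the table and in RefSeq. A planned comparison of protein sequences was not made.

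As a check of pairing, each library's deviations from its group means were correlated, over genes, with those of the library of the same number in another group. The lowest correlation was 0.318 for EE with control, 0.526 for EE with oviposition and -0.157 for oviposition with control. All same-number correlations were thus above 0.1 for both comparisons of EE. Each EE library correlated most with the oviposition library of its own number. However, EE replicate 1 correlated more with control replicate 3 (0.432) than with control replicate 1 (0.335). EE replicate 3 correlated more with control replicate 1 (0.349) than with control replicate 3 (0.318). The replicate 2 libraries resembled each other across all groups. Their correlation was 0.775 for EE with control, 0.765 for EE with oviposition and 0.674 for oviposition with control. Every correlation of a replicate 2 library with another number in another group was negative. For numbers 1 and 3, the check does not settle whether the numbers pair EE with control.

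Alternatives were no mean-variance trend, vooma weights, the replicate block, quantile normalization, a model of only the 2 groups compared, 1 CPM added, median centring, voom on the recovered reads, a filter on a mean log2 value of at least 0, an adjusted p under 0.01 and each library left out. Chosen after seeing the data were leaving out all replicate 2 libraries, weights per library, undoing the scale step, and RPM computed on the recovered total.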

Additional observations from a re-analysis of the deposited data

How the results depend on the processing

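RBOHD was higher after EE than in control under all 22 alternatives, and lost its call under 10 of them. Its log2 fold change was 1.70 with vooma weights and with only the 2 groups compared, 1.78 with voom and 1.92 with RPM on the recovered total, and between 1.45 and 2.10 when 1 library was left out. The number of RBOH genes raised by EE was 0 under those 4 settings, and between 0 and 1 with 1 library left out. RBOHF in EE over control was -0.0203 with weights per library and between -0.19 and 0.34 with 1 library left out, and in oviposition over control between -0.4412 and 0.0941. RBOHD in oviposition over control and both genes in EE over oviposition kept their direction and did not pass under any alternative. Several alternatives could not move a fold change. No trend, vooma weights, the replicate block, only the 2 groups, median centring and the mean filter keep the difference of group means. Leaving out a library of the group outside the comparison keeps it too. Median centring repeated the fit as reported, because the medians were already equal.

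Oviposition changed 264 genes in all, but 77 with vooma weights, 54 with only the 2 groups, 164 with quantile normalization, 67 with voom, 99 without the replicate 2 libraries, 100 at an adjusted p under 0.01, and 114 to 333 with 1 library left out. EE changed 532, but 334 with vooma weights, 343 with voom, 350 without the replicate 2 libraries, 211 at an adjusted p under 0.01, and 210 to 774 with 1 library left out. EE against oviposition gave 3 genes, but 5 with vooma weights, only the 2 groups or voom, 14 with quantile normalization, 36 with 1 CPM added, 0 without the replicate 2 libraries, 52 with weights per library, 1 with RPM on the recovered total, and 0 to 4 with 1 library left out. For the lists, EE raised 3 to 7 genes and oviposition 1 to 3 with 1 library left out.

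With the replicate number as a block, RBOHD in EE over control had a limma adjusted p of 0.0248, and the block changed no call on a member. It raised the number of genes changed by EE to 775 and that of list genes changed by oviposition to 7, against 2 without it, and left 1 gene for EE against oviposition. By the check made, the replicate 2 libraries resembled each other across the groups. Numbers 1 and 3 do not pair oviposition with control, and their pairing of EE with control was not settled.

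Each group had 3 libraries, and the lowest count of a member, 340 reads of RBOHF, had an exact 95% interval of 304.8 to 378.1 for counting error. The 95% interval of RBOHF after EE includes changes up to 1.83-fold, and the 6 members without a row could not be judged. An alternative that left out 1 library of a group pooled the spread over the rest.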
